A study of Mus musculus with 4 samples.

Results

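The 7 genes described here encode RNA-binding proteins of the Pumilio (Pum2), muscleblind (Mbnl1, Mbnl2, Mbnl3), Quaking (Qk) and CELF (Celf1, Celf2) families. They are 7 of the 24421 gene rows counted. They were chosen by their family and on their measured counts, among them the difference between both shControl libraries, so their values are given as a description. Where a member is said to pass or miss the limits for a call, this states where the fit over all genes put it and is no independent test. The libraries came from B16F10 cells, a melanoma line of C57BL/6 mice, after lentiviral transduction and puromycin selection. In the 2 shControl libraries the cells carried a control vector, listed in the study's methods as empty pLKO.5-puro, and in the 2 shLmna libraries a short hairpin RNA (shRNA) against exon 8 of Lmna, which encodes the nuclear lamins A and C. The control cells thus had the vector and the selection in common with the shLmna cells but, by that listing, no hairpin. RNA of each line was profiled by bulk MARS-seq, which primes at the poly(A) tail and counts the 3′ ends of transcripts. No source states if replicate libraries were made from separate cultures, so the spread between them may be technical. In bulk RNA, fewer cells expressing a gene and less RNA per cell cannot be told apart.

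Proteins of these families read short sequence elements in RNA, largely in introns and 3′ untranslated regions (UTRs). Pumilio proteins bind an element in 3′ UTRs, recruit deadenylases and lower the translation and stability of the bound mRNA, often together with Nanos proteins. Muscleblind and CELF proteins act on many of the same exons with opposite effects during muscle and heart development, and Quaking, of the STAR family, controls splicing, mRNA stability and circular RNA formation in glia, muscle and other tissues.

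Library totals ranged from 2494880 to 3808843 counts. Lmna (chromosome 3, 88480147 to 88509956, mm10) measured 875 and 719 CPM (counts per 1000000 counts of the library, scaled by TMM factors) in shControl 1 and 2, and 131 CPM in both shLmna libraries. The groups thus followed their labels, and the log2 fold change was −2.61 ± 0.14 (SE; edgeR adjusted p = 7.93e-06). Of 7 melanocyte markers 5 exceeded 100 CPM in every library, whereas Tyr, the gene of tyrosinase, stayed between 0.268 and 1.91 CPM. Summed over the list, these markers gave 20117 to 20891 CPM in shControl and 21156 to 24602 CPM in shLmna. Single markers went in both directions. In CPM, Mlana and Pmel were higher in both shLmna libraries and Sox10 and Mitf lower. Sox10 had 5083 and 6914 shControl counts against 2131 and 3676 shLmna counts. Of 9 markers of leukocytes, endothelium, epithelium and fibroblasts 5, including Ptprc, Epcam and Dcn, had 0 counts in all libraries, and the list summed to 19.2 to 19.3 CPM in shControl and 11.9 to 15.8 CPM in shLmna. Counts of 46 genes, 4 of them members, were over 8-fold higher in shControl 2 than in shControl 1 and the fold changes of the 4 fitted members and of Sf1 are given below with and without each of these libraries.

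The 3′ ends of the members were searched for the short elements that proteins of these families are known to bind. For each gene the last 1000 bases of 1 GENCODE vM21 transcript with a RefSeq match were searched on the sense strand, and in all 7 genes this stretch lay within the 3′ UTR in the last exon. Muscleblind transcripts held 7 matches to elements of the other families, and the 5 printed here are those to the Pumilio element, the CELF element and the first of the Quaking cores, ACTAAC. Capitals mark the searched letters, with T for U, read 5′ to 3′ in GRCm38, which is mm10.
Mbnl1, Pumilio element, chr3:60628778-60628807, plus strand: ttttgcacttcTGTATATAgtcaaaagaga
Mbnl3, Pumilio element, chrX:51118084-51118113, minus strand: acccaagtattTGTATATAaaccaaattct
Mbnl2, Quaking core, chr14:120431428-120431455, plus strand: gtagttagggaACTAACtccacttgcac
Mbnl3, Quaking core, chrX:51117275-51117302, minus strand: gcagaaggcttACTAACaaagttctcgc
Mbnl2, CELF element, chr14:120430712-120430740, plus strand: tgcttgtgtcgTGTTTGTttttaatttgt

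The Pumilio element TGTANATA occurred in 2 of the 7 members, Mbnl1 and Mbnl3, and in 17.9% of the 8492 tested genes with a full window. The Quaking core ACTAAC was found in Mbnl2 and Mbnl3 and in 11.2% of those genes, and its variant ACTAAT in Mbnl2, Mbnl3 and Celf2 and in 14.1%. The GU-rich CELF element TGTTTGT occurred in Mbnl2 alone among the members and in 19.6% of the tested genes. Matches to these 4 motifs did not overlap one another. Of the 2 muscleblind cores searched, TGCT was present in 7 of 7 members and in 99.6% of the tested genes, and CGCT in 6 of 7 and in 64.0%. Forms of the muscleblind core that end in C were not searched. With 7 members these counts are not set apart from the shares over all genes. In Pum2, Qk and Celf1 the 1000 bases held none of the 4 longer motifs. Over the last 500 bases TGTANATA was present in 0 members and TGTTTGT in 0, ACTAAC in 2 and ACTAAT in 1. These are matches of letters, and binding was not measured here.

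**Figure D1:**
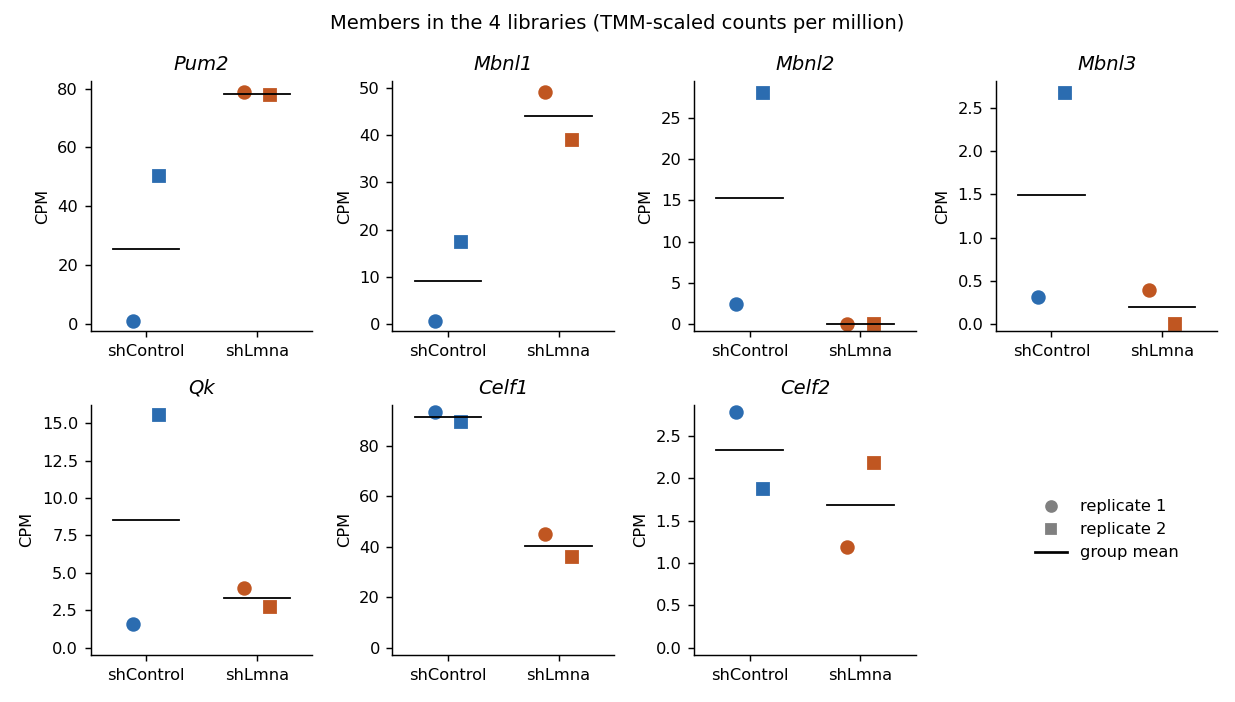
TMM-scaled CPM (vertical axis, linear, from 0) of the 7 members in shControl (blue) and shLmna (orange); circles are replicate 1, squares replicate 2 and horizontal lines group means. The shControl 1 point of Pum2 (0.929 CPM) and Mbnl1 (0.619 CPM) lies far below the other 3 libraries, the shControl 2 point of Mbnl2 (28.1 CPM), Mbnl3 (2.68 CPM) and Qk (15.5 CPM) far above them, and the Celf1 points separate by group.

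The members fell into patterns that the group means hide. Pum2 and Mbnl1 were at or under 3 counts in shControl 1 and well measured in the other 3 libraries. Mbnl2, Mbnl3 and Qk were well above the rest in shControl 2. Celf1 differed little between the shControl libraries and was lower in both shLmna libraries. Celf2, at 9 and 7 shControl counts, had too few counts to be placed.

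Pum2 (chromosome 12, 8674134 to 8752581, plus strand) encodes 1 of the Pumilio repressors of mammals. Its counts were 3 in shControl 1, 188 in shControl 2, 199 in shLmna 1 and 286 in shLmna 2, or 0.929, 50.3, 78.7 and 77.9 CPM. The groups did not overlap, and the shLmna libraries were close to each other while the shControl libraries were far apart. Scaled for depth, shControl 2 was 54.2-fold higher than shControl 1, with an exact 95% interval of 18.3 to 265 that covers counting error only, as do all such intervals here. In shLmna the ratio of replicate 2 to replicate 1 was 0.990 (0.823 to 1.19). Group means were 25.6 ± 34.9 CPM (SD, n = 2) in shControl and 78.3 ± 0.554 CPM in shLmna. The fitted log2 fold change was 1.56 (SE 0.73), which did not pass the limits for a call. It was 0.64 without shControl 1 and 6.33 without shControl 2, so it stayed positive without either library while its size changed. These 2 fits do not hold the distance between the shControl libraries, so no call is given for them. Pum2 passed the limits as higher without the filter on low counts, with the replicate number as a block (1.93) and with block and GC correction together (1.86). In these fits the edgeR adjusted p of Lmna was smaller as well, at 2.05e-67, 5.3e-40 and 8.55e-17 against 7.93e-06 in the main fit. The passes of Pum2 are thus listed and not read as support for a difference. Against shControl 2 alone the shLmna mean was 1.56-fold higher (counting interval of pooled shLmna counts 1.31 to 1.85).

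Mbnl1 (chromosome 3, 60472830 to 60629750, plus strand) encodes the muscleblind protein that is sequestered by expanded CUG repeats in myotonic dystrophy. It had 2 counts in shControl 1, 65 in shControl 2, and 124 and 143 in shLmna, or 0.619, 17.4, 49.0 and 39.0 CPM. Both shLmna values exceeded both shControl values. The shControl libraries differed by 28.1-fold (7.47 to 237), the shLmna libraries by a ratio of 0.794 (0.620 to 1.02). Means were 9.01 ± 11.9 CPM in shControl and 44.0 ± 7.13 CPM in shLmna, with a log2 fold change of 2.22 (SE 0.66). Mbnl1 passed the limits as higher in shLmna. Fits without 1 shControl library do not hold the distance between both, so no call is given for them. On the log2 scale Mbnl1 was at 1.33 without shControl 1 and at 6.05 without shControl 2. It did not pass without shLmna 1 (2.07) or without shLmna 2 (2.41), nor with DESeq2 (2.29) or with limma on the deposited log2 values (0.64). The shLmna mean exceeded shControl 2 alone by 2.53-fold (counting interval 1.88 to 3.30 of pooled counts).

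Mbnl2 (chromosome 14, 120275669 to 120431697, plus strand), a splicing regulator best known from the brain, had 8 counts in shControl 1, 105 in shControl 2 and 0 in both shLmna libraries. In CPM these were 2.48, 28.1, 0 and 0. The groups did not overlap, and shControl 2 stood 11.3-fold (5.55 to 27.0) above shControl 1. With the floor of detection set at 3 counts in each library, or 1.002 CPM on average in shLmna, Mbnl2 was at least 15.3-fold lower in shLmna than in the shControl mean. The bound was 28.1-fold against shControl 2 alone and 2.47-fold against shControl 1 alone, so its size rested on shControl 2. It holds for the 3′ window counted by the authors, and reads of an Mbnl2 end outside that window may be missing. The gene was removed by the filter on low counts and was not tested in the main fit. Without that filter Mbnl2 passed the limits for a call, which is listed only, as for Pum2.

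Mbnl3 (chromosome X, 51117269 to 51206532, minus strand), the third muscleblind gene, was near the floor, at 1 and 10 counts in the shControl libraries against 1 and 0 in the shLmna ones. Its highest value was again in shControl 2, at 2.68 CPM, and the groups overlapped. The ratio between the shControl libraries was 8.64 with an interval of 1.23 to 375. At this depth a difference between the groups was not detectable.

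Qk (chromosome 17, 10202601 to 10319854, minus strand), which encodes the Quaking proteins needed for myelination, measured 5 and 58 shControl counts, and 10 in each shLmna library. These equal 1.55 and 15.5 CPM, and 3.96 and 2.72 CPM. The shLmna values thus lay between the shControl values, 10.0-fold apart (4.06 to 32.0), so the groups overlapped. Its log2 fold change was −1.42 (SE 0.80), not called. Without the filter on low counts Qk passed the limits as lower (−1.40), which is listed only, as for Pum2. Without shControl 1 it was −2.24, and without shControl 2 it turned to 1.05. The direction for Qk was therefore set by the shControl library used.

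Celf1 (chromosome 2, 90940382 to 91019497, plus strand) encodes a protein that binds GU-rich elements, promotes decay of the bound mRNA and opposes muscleblind on many exons. Its counts were 302 and 334 under shControl and fell to 114 and 132 under shLmna, or 93.5, 89.4, 45.1 and 36.0 CPM. Both pairs of libraries lay close together and the groups did not overlap. The ratio between the shControl libraries was 0.956 (0.816 to 1.12). Means were 91.5 ± 2.91 CPM in shControl and 40.5 ± 6.45 CPM in shLmna. On the log2 scale Celf1 differed by −1.19 (SE 0.16), the smallest error among the tested members, and Celf1 passed the limits as lower. It ranged from −1.34 to −1.01 with any 1 library left out. With all libraries kept, Celf1 passed under each alternative but limma on the deposited log2 values (−0.42).

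Celf2 (chromosome 2, 6539694 to 7509563, minus strand), a CELF protein abundant in brain, heart and lymphocytes, had 9 and 7 counts in the shControl libraries and 3 and 8 in the shLmna ones. Its values of 1.19 to 2.79 CPM overlapped between the groups. The ratio of shControl 2 to shControl 1 was 0.672 (0.213 to 2.03). Celf2 did not pass the filter, and no difference was detectable at this depth.

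Over the list, 4 of 7 members passed the filter on low counts, of which Mbnl1 was called higher and Celf1 lower. Among all 9150 tested genes 5.88% were called lower and 1.76% higher. Without overlap between the groups were Pum2 and Mbnl1 (higher), Celf1 and the untested Mbnl2 (lower), beside 30.6% of tested genes lower and 29.5% higher without overlap. As the members were chosen on this contrast, nothing is read from these counts. The median log2 fold change of the 4 tested members was 0.19 and that of all tested genes −0.00107. The SE exceeded that of 98.8% of tested genes for Pum2, 98.1% for Mbnl1 and 99.2% for Qk, but of 31.2% for Celf1. A wide gap between the shControl libraries, on which members were chosen, enlarges the SE, so nothing is read from these ranks.

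**Figure D2:**
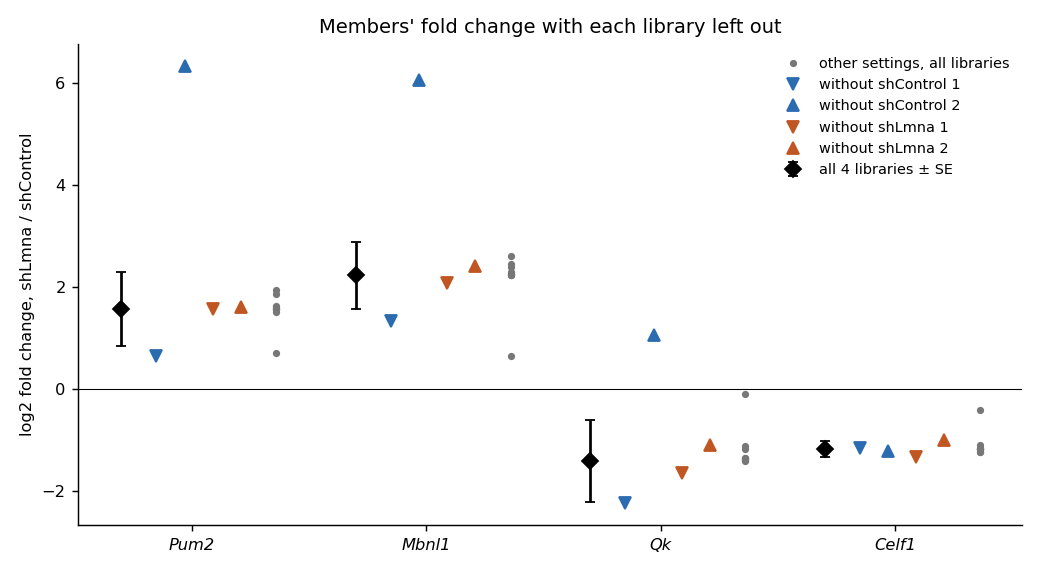
Log2 fold change of shLmna over shControl (vertical axis) for the 4 tested members with all libraries (black diamonds, ± SE), with 1 library left out (triangles) and under the other settings (grey points). For Pum2 and Mbnl1 the value without shControl 2 rises to 6.33 and 6.05, for Qk it crosses 0 to 1.05, and for Celf1 the values with 1 library left out stay between −1.34 and −1.01.

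The difference between the shControl libraries was then set against all genes. Of 7874 genes with at least 50 counts summed over both, 46 (0.584%) were over 8-fold higher in shControl 2 and 1 was over 8-fold lower. Of the 5 members with this many counts, Pum2, Mbnl1, Mbnl2 and Qk were among the 46 and Celf1 was not. The rule used these differences, so nothing is read from that count. Across the 7874 genes the log2 ratio had a median of 0.02 and an SD of 0.49, and its lower and upper 5% of genes began at −0.48 and 0.64. In shLmna 5 of 7454 genes were over 8-fold higher in replicate 2. The 3 members with at least 50 summed counts there, Pum2, Mbnl1 and Celf1, were not among them. With a minimum of 20 summed counts, tried after seeing the data, 83 of 9164 genes passed the 8-fold limit, and with a 4-fold limit 61 of 7874, with 4 members in each case.

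The genes that stood higher in shControl 2 had ends of low GC content. The share over 8-fold was 6.64% (17 of 256 genes) at a GC content up to 34%, 3.12% (21 of 673) above 34% to 38%, 0.519% (6 of 1157) above 38% to 42%, 0.145% (2 of 1377) above 42% to 46%, and 0 of 1364 genes above 46% to 50%. All 7 members lay below the middle of the tested genes, with a median of 39.6% against 46.9% for the 9099 tested genes with a transcript. The content was 30.8% for Mbnl2, 35.4% for Mbnl1, 37.2% for Qk, 39.6% for Mbnl3, 39.8% for Celf1, 40.0% for Pum2 and 42.1% for Celf2. For the transcripts used, Pum2 and Celf1 thus had nearly the same GC content, with shControl ratios of 54.2 and 0.956. Other RefSeq ends differ in GC content. Ends ran from 35.0% to 41.3% for Pum2, 31.3% to 39.4% for Mbnl1, 30.7% to 47.2% for Mbnl2 and 30.3% to 37.2% for Qk. Celf1 had 1 end. With a GC correction the log2 fold changes were 1.51 for Pum2, 2.45 for Mbnl1, −1.36 for Qk and −1.24 for Celf1, close to the uncorrected values. This correction removes a trend fitted over all genes. The median log2 ratio of shControl 2 to shControl 1 was 0.37 even at a GC content up to 34%. The correction therefore could not remove gaps as wide as those of Pum2, Mbnl1 and Qk, and nothing is read from the small shifts. The part of base composition in the difference between the shControl libraries was not tested. No 31-base stretch of these ends occurred in the last 1000 bases of the transcript used for any other listed gene (0% for each member), and copies elsewhere in the genome were not searched. RefSeq lists 5 transcript ends for Pum2, 6 for Mbnl1, 3 for Mbnl2, 3 for Qk, 2 for Mbnl3, 5 for Celf2 and 1 for Celf1. Reads of different ends were not told apart in the counts. Reads of an end outside the window counted by the authors may not have been counted at all.

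**Figure D3:**
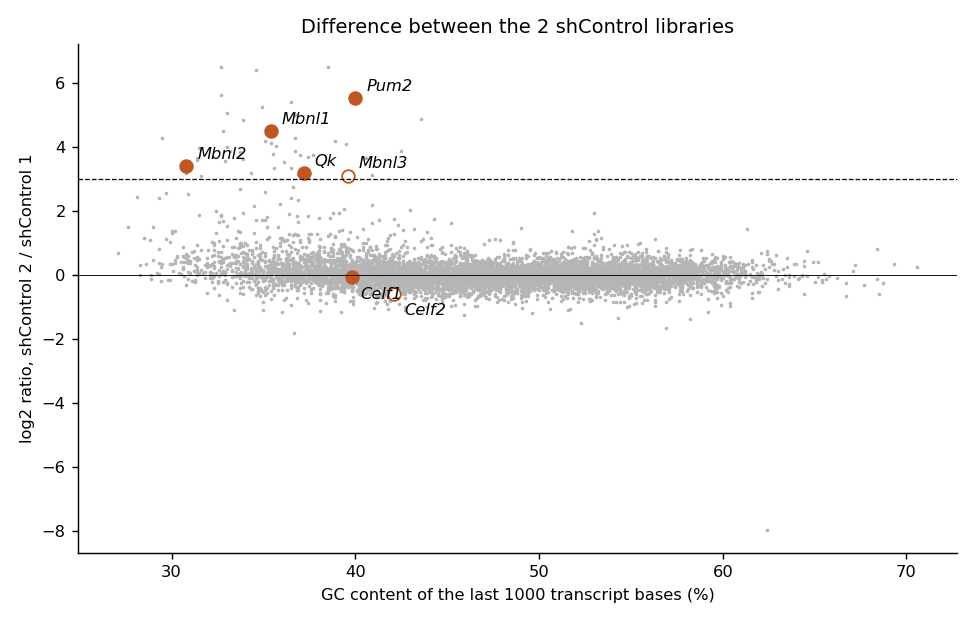
Log2 ratio of shControl 2 to shControl 1 (vertical axis, pseudocount of 0.5 counts) against the GC content of the last 1000 transcript bases in percent (horizontal axis) for genes with at least 50 summed counts (grey) and members (orange). Open circles are Mbnl3 and Celf2, which had fewer counts and are drawn without pseudocount. Points above the dashed 8-fold line crowd at low GC content, and Celf1 lies near 0 while Pum2, Mbnl1, Mbnl2 and Qk lie above the line. The open circle of Mbnl3 (3.11) lies just above the line as well.

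Within these 46 genes the members took different places once shLmna was compared with shControl 2. In 35 genes (76.1%), Mbnl2 and Qk among them, the shLmna mean was below 50% of shControl 2, in 9 (19.6%), including Pum2, it was within 2-fold, and in 2 it was over 2-fold higher. The latter were Mbnl1 and Tfrc, the transferrin receptor, which is named after its values were seen, with 11 and 178 shControl counts against 507 and 626 shLmna counts. For Mbnl2 and Qk shControl 1 was nearer to shLmna than shControl 2 was, and for Pum2 and Mbnl1 shControl 2 was nearer. The shLmna mean of Qk was 2.16-fold above shControl 1 (counting interval 0.759 to 7.10 of pooled counts) and 4.65-fold below shControl 2. These shares describe genes chosen by the same ratio as the members.

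**Figure D4:**
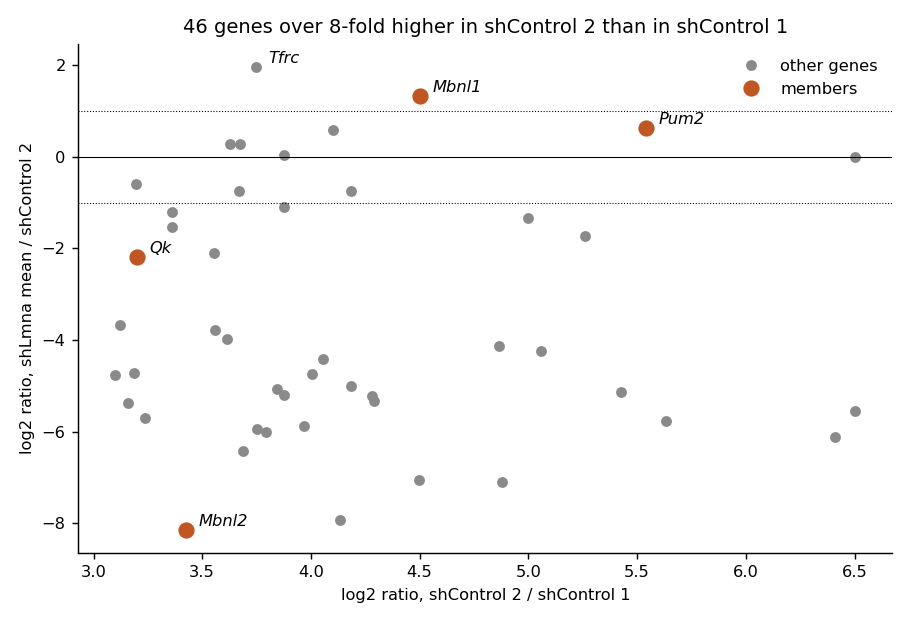
The 46 genes over 8-fold higher in shControl 2 than in shControl 1, with that log2 ratio on the horizontal axis and the log2 ratio of the shLmna mean to shControl 2 (pseudocount of 0.1 CPM) on the vertical axis; dotted lines mark 2-fold. Mbnl1 and Tfrc lie above the upper line, Pum2 between the lines, and Qk and Mbnl2 below, where the height of Mbnl2 is set by the pseudocount since it had 0 counts in shLmna.

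Relatives of the members outside the list were compared in the same fit. Of 9 PUF, CELF and STAR relatives 5 (Celf3, Celf4, Celf6, Khdrbs2, Khdrbs3) had 0 counts in every library and 3 were tested. The 1 with an adjusted p under 0.05 was Sf1, which binds the branch point of introns through a domain like that of Quaking. Its shControl counts were 900 and 1175 and its shLmna counts 581 and 701, or 297 ± 25.3 CPM and 210 ± 27.4 CPM. Its log2 fold change was −0.50 (SE 0.14, edgeR adjusted p = 0.0370), under the size needed for a call, and 15.2% of all tested genes had an adjusted p under 0.05. Without shControl 1 it was −0.58 (edgeR adjusted p = 0.00264). The adjusted p rose to 0.0623 without shControl 2, 0.0772 without shLmna 1 and 0.284 without shLmna 2.

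The remaining tested relatives were D19Bwg1357e, the older symbol of Pum3, at −0.31 (SE 0.27), and Khdrbs1, the gene of SAM68, at 0.43 (SE 0.38). Neither passed the test (edgeR adjusted p = 0.483 and 0.495).

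Of 8 Pumilio partners 2 were tested and 0 had an adjusted p under 0.05 with edgeR, 0 at an unadjusted p under 0.05 and 0 with DESeq2. Cpeb1, a regulator of cytoplasmic polyadenylation, had a log2 fold change of −0.27 (SE 0.25), and Cpeb4, of the same family, −0.47 (SE 0.54). Cpeb4 varied within both groups, at 42 and 109 shControl counts and 13 and 88 shLmna counts. The Nanos genes were at or under 8 counts per library, and 2900097C17Rik, the older symbol of the Pumilio-binding RNA Norad, at 2 to 4 counts. Of 10 other splicing regulators 2 were tested, Ptbp1 at 0.16 (SE 0.12) and Rbfox2 at 0.25 (SE 0.22), and neither passed with edgeR, at an unadjusted p under 0.05 or with DESeq2. Ptbp2 and Ptbp3, named after their values were seen, had the pattern of Mbnl2 and were not tested. Ptbp2 gave 8 and 63 shControl counts against 2 and 0 for shLmna, and Ptbp3 3 and 38 against 2 and 2.

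**Figure D5:**
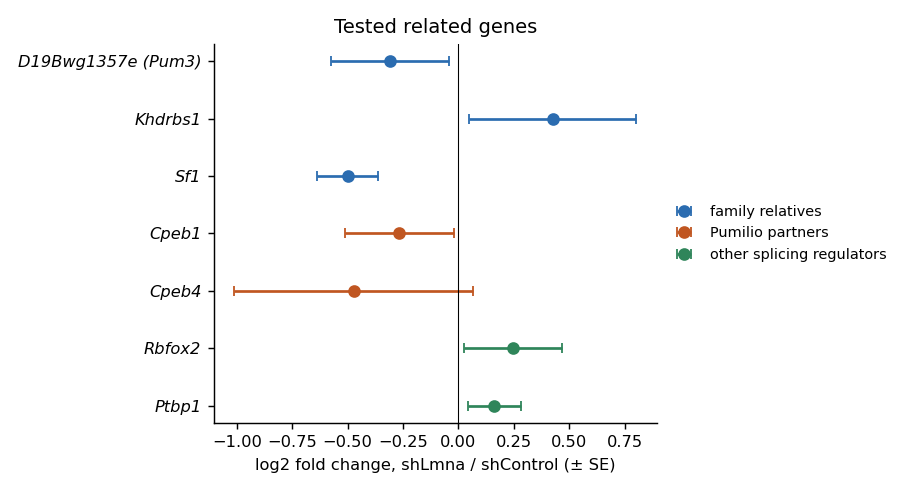
Log2 fold change of shLmna over shControl (horizontal axis, ± SE) of the 7 tested relatives, Pumilio partners and other splicing regulators. All lie between −0.50 and 0.43, and Sf1 was the 1 gene with an adjusted p under 0.05.

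The median of the members' centred log2 CPM was −0.34 in shControl 1, 0.95 in shControl 2, −0.21 in shLmna 1 and −0.53 in shLmna 2. The 5 tested genes nearest to it over the 4 libraries, by Euclidean distance in log2 units, were Dnase2a (0.0831), Samd1 (0.207), Mfsd7b (0.279), Rab36 (0.319) and Pias2 (0.331). Dnase2a, which encodes a lysosomal nuclease, gave 30 and 92 shControl counts against 26 and 30 shLmna counts. The median profile was highest in shControl 2, as were Mbnl2, Mbnl3 and Qk, whereas Pum2 and Mbnl1 were highest in shLmna 1, and Celf1 and Celf2 in shControl 1.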

How the data were processed

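Per the study's methods, the authors processed reads in UTAP: Cutadapt trimming, STAR 2.4.2a alignment to mm10 and HTSeq counting in a RefSeq 3′ window (1000 bases before and 100 after the gene end), with UMI (unique molecular identifier) duplicates marked. Raw counts per gene, deposited as 1 matrix, underlie every main value here, and no source says if it predates duplicate collapsing. The signal columns in another of the deposited tables are counts over 1 size factor per library, with 100% of values whole multiples of 1 step (tolerance 0.02 steps), and stand beside the authors' p-values, which were not used. The last table held deposited log2 values batch-corrected by ComBat with unnamed batches.

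Groups and replicate numbers came from the sample titles. Replicates differed by more than counting noise (chi-square per degree of freedom 6.96 in shControl, 3.91 in shLmna) and were kept apart. Counts were fitted with the edgeR 4.0.16 quasi-likelihood F test in R 4.3.3 (TMM, filterByExpr, group as the single term, two-sided, Benjamini-Hochberg over 9150 genes). A gene was called at an adjusted p under 0.05, a log2 fold change over 1 in size and a mean normalized count over 5, the study's limits. SEs were derived from the F statistic. Exact (Clopper-Pearson) intervals used a level of 95%. Alternatives were RLE and total-count scaling, no filter, DESeq2 1.42.0, recovered counts, limma 3.58.1 on the log2 values, each library left out, a replicate block and a GC correction.

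The members and the lists of relatives, Pumilio partners, splicing regulators and markers were chosen with earlier results of these data known. Named are the 7 members, Lmna, list genes with an adjusted p under 0.05 and the 5 nearest profiles; the tested or otherwise notable list genes given besides are context. The list of relatives is given without 1 gene, which is not reported here. Protein sequences were not used here, so identity between family members was not computed. Site sequences were read from GENCODE vM21 transcripts.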

Additional observations from a re-analysis of the deposited data

How the results depend on the processing

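Over all tested genes 538 were called lower and 161 higher in shLmna. These counts were 28 and 2 with limma on the batch-corrected log2 values, whose fold changes are smaller, and 74 were higher with DESeq2 (393 lower). Without the filter on low counts, which adds genes to the fit, 701 were called lower and 207 higher. With 1 library left out they ran from 387 to 744 and from 60 to 232. Of the members 2 were called, 5 without the filter on low counts (Pum2, Mbnl2 and Qk were added), 1 with DESeq2 and 0 with limma. As the members were chosen on this contrast, nothing is read from their counts. Among relatives, partners and splicing regulators 1 gene had an adjusted p under 0.05, 3 without the filter, 2 with limma and 0 to 4 with 1 library left out. The log2 fold change of Qk was −1.42, ran from −2.24 to 1.05 with 1 library left out and reversed without shControl 2, and that of Celf1 fell to −0.42 in size with limma. The direction of Pum2, Mbnl1, Celf1 and Sf1 held under all 13 alternatives. Where a group kept 1 library, it was assumed to vary like the other group.

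Over all tested genes the differences between replicates 1 and 2 were nearly uncorrelated between the groups (correlation of deviations 0.013). Pairing by replicate number in a part of the genes was not tested. With the replicate block 605 genes were called lower and 209 higher, and the log2 fold changes were 1.93 for Pum2, which then passed the limits, 2.39 for Mbnl1, −1.17 for Qk and −1.19 for Celf1. Depth limits what can be said of Mbnl3 and Celf2, and for Mbnl2 the limits are the distance between the shControl libraries and the counted 3′ window.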
